A study of Papio anubis with 588 samples.

Results

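The 6 transcripts described here belong to the splicing machinery, and are those of the cyclin L genes CCNL1 and CCNL2 and of the CDC-like kinase genes CLK1, CLK2, CLK3 and CLK4. They are 6 of the 34178 genes in the deposited count tables and were taken by symbol. The set was chosen on the fall of CCNL2 in most animals in adipose tissue, a measured value of these data, so every change of these transcripts in adipose tissue is a description and carries no test.

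RNA was sequenced from adipose, muscle and liver biopsies of 99 baboons (Papio anubis, a monkey of the Old World). The HCHF group had eaten a diet high in cholesterol and fat for 2 years when it was sampled, and the LCLF group is the same animals at 0 years, on a diet low in both. After the authors' quality control there were 87 HCHF and 95 LCLF libraries of liver, 98 HCHF and 96 LCLF libraries of muscle, and 95 HCHF and 99 LCLF libraries of adipose tissue. No agent or genotype is labelled, nor are age and sex. Animals kept on 1 diet were not analysed here, so diet, ageing and calendar time cannot be told apart.

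The CLK kinases phosphorylate the serine/arginine-rich (SR) proteins, splicing factors that are stored in nuclear speckles and released from them as their phosphorylation changes. Cyclin L1 and cyclin L2 carry an SR-like domain of their own, sit in the same speckles and partner the kinase CDK11 in splicing. In human and mouse cells several of these genes keep a share of their RNA in the nucleus with introns retained, CLK1 and CLK4 among them, and heat or other stress changes that share, so a gene-level count adds spliced and unspliced forms.

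Depth per library ran from 6.51 to 38.46 M counts (M, mega) with a median of 19.5 M. The median was 10.95 M in batch 1 (16 animals, unstranded kit) and 20.1 M in batch 2 (83 animals, stranded kit); the labels describe both batches, and the animals were put in them from the expression data. Each tissue carried its own markers. Of the libraries 8 stood apart by those markers, 7 HCHF and 1 LCLF: 5 had a low share of their own tissue's markers and 3 held over 1% of another tissue's. The first axis of expression, computed without the 6 transcripts, held 15.5% of the variance in adipose tissue, 9.97% in liver and 23.8% in muscle. In muscle 11 HCHF and 15 LCLF libraries, from 18 animals, lay over 3 median absolute deviations out on it, against 4 HCHF and 2 LCLF libraries in liver and 0 HCHF and 1 LCLF library in adipose tissue. In the RefSeq annotation CCNL2 overlaps LOC101011345 and CLK3 overlaps LOC108586766. Whether counting used strand, and how reads matching several genes were handled, the sources used here do not give; values of these genes, and the split between CLK1 and its close paralog CLK4, are uncertain to that extent.

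All 6 transcripts were detected in every library of each tissue, at 16.0 CPM or more (CPM, counts scaled to a common library size), and the tissues differed for each gene. CCNL1 was highest in liver, where the mean over both diets lay 1.37 ± 0.052 log2 units above muscle (SE, 80 animals, higher in 80 of 80) and 0.98 ± 0.034 above adipose tissue (82 animals, higher in 82 of 82). CCNL2 had the same order, liver above adipose tissue by 0.29 ± 0.035 and muscle below adipose tissue by 0.81 ± 0.066 (91 animals; the muscle minus adipose difference was -0.81). For CLK2 no difference between liver and adipose tissue was detected, at 0.01 ± 0.027 (adjusted p = 0.651, limma, higher in liver in 38 of 82 animals), and muscle minus adipose tissue was -0.73 ± 0.052. Each of CCNL1, CCNL2 and CLK2 was lowest in muscle.

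CLK1, CLK3 and CLK4 were ordered otherwise. CLK1 was lowest in liver, with liver minus muscle at -0.25 ± 0.044 and liver minus adipose tissue at -0.34 ± 0.031, and liver was above adipose tissue in 7 of 82 animals. In LCLF libraries alone liver minus muscle was -0.11 for CLK1 and not called (adjusted p = 0.0532, limma). CLK3 was highest in muscle, 0.34 ± 0.035 above adipose tissue and higher there in 84 of 91 animals. CLK4 was highest in liver by small margins, 0.10 ± 0.044 over muscle and 0.27 ± 0.030 over adipose tissue. CLK1 and CLK4 therefore had opposite signs between liver and each other tissue. By limma 6 of 6 transcripts passed an adjusted p of 0.05 between liver and muscle, 5 of 6 between liver and adipose tissue and 6 of 6 between muscle and adipose tissue, where 92.7%, 92.4% and 93.7% of 18588 genes did, so a call says little of these 6 in particular. The median difference over those genes was 0.10, -0.08 and -0.32. The muscle minus adipose difference of CLK1, -0.11 ± 0.047 over both diets, was 0.10 ± 0.052 in HCHF libraries alone (adjusted p = 0.0753, limma) and -0.33 ± 0.056 in LCLF libraries alone, and in batch 2 alone it was -0.06 (adjusted p = 0.316). That of CLK4, 0.15 ± 0.046, was not called with RLE size factors (0.07, adjusted p = 0.139) or in LCLF libraries alone (0.01, adjusted p = 0.846), and liver minus muscle for CLK4 was not called in batch 2 alone (0.07, adjusted p = 0.18) or in HCHF libraries alone (0.04, adjusted p = 0.397).

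**Figure D1:**
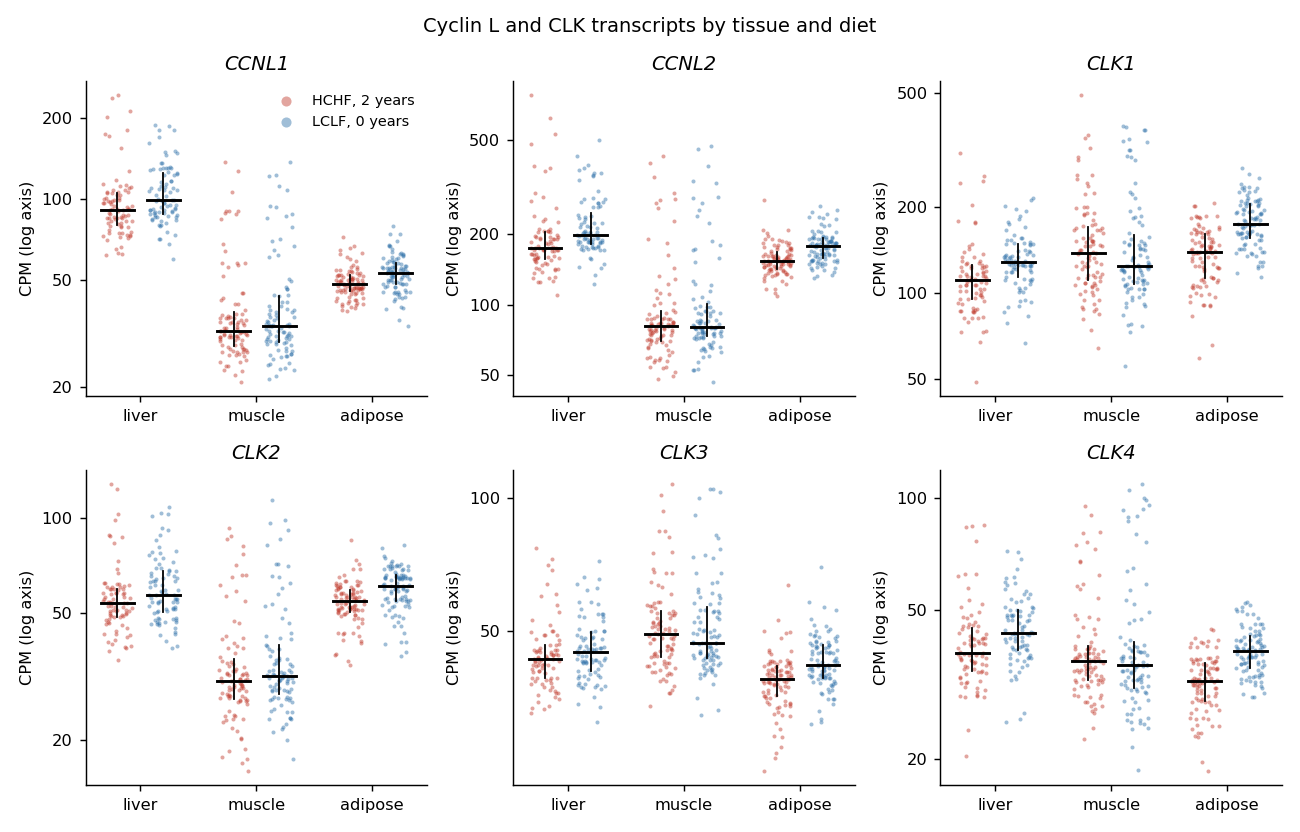
CPM of each transcript on a log axis in animals sampled on both diets, HCHF (red, left) and LCLF (blue, right) for liver (84 animals), muscle (95) and adipose tissue (95). Points are libraries, thick bars medians and thin bars the quartiles; muscle has a tail of high libraries on both diets, and in adipose tissue the HCHF median of each transcript lies under the LCLF median.

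In adipose tissue, the contrast that chose the set, both cyclins were lower on HCHF in most animals. CCNL2 ran from 109 to 278 CPM with a median of 153 CPM in HCHF samples, and from 129 to 262 CPM with a median of 177 CPM in LCLF samples. The ranges overlapped almost fully, and the level was lower in HCHF in 82 of 95 animals. Its fitted change was -0.19 ± 0.021 on the log2 scale (SE, edgeR), 12.6% lower. CCNL1 had a median of 48.3 CPM in HCHF samples (38.3 to 72.2) and of 53.1 CPM in LCLF samples (33.6 to 79.3), a change of -0.12 ± 0.021, lower in 68 of 95 animals.

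The kinases CLK1 and CLK4 were further below their LCLF level in adipose tissue than CCNL2, the gene the set was chosen on. CLK1 ran from 59.4 to 207 CPM with a median of 139 CPM in HCHF samples, and from 114 to 273 CPM with a median of 175 CPM in LCLF samples. The lowest and the highest values lay lower in HCHF samples, and the ranges overlapped from 114 to 207 CPM. The fitted change of CLK1 was -0.40 ± 0.044, 24.5% lower, and 78 of 95 animals were lower. CLK4 ran from 18.6 to 44.7 CPM with a median of 32.3 CPM in HCHF samples, and from 29.2 to 52.7 CPM with a median of 38.9 CPM in LCLF samples, a change of -0.29 ± 0.031, 18.1% lower, in 79 of 95 animals. CLK2, a kinase also known in mouse liver as an insulin-responsive brake on gluconeogenesis, changed by -0.15 ± 0.018 (lower in 79 of 95), and CLK3 by -0.16 ± 0.022 (lower in 72 of 95). The median of the 6 changes was -0.18, against -0.005 over all genes tested, and edgeR called 19.9% of 16827 genes lower and 18.7% higher; nothing is read from this, since the contrast chose the set. Each of the 6 changes was negative under each of the 12 alternative settings, those of CLK1 between -0.420 and -0.357 and those of CCNL2 between -0.205 and -0.142.

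**Figure D2:**
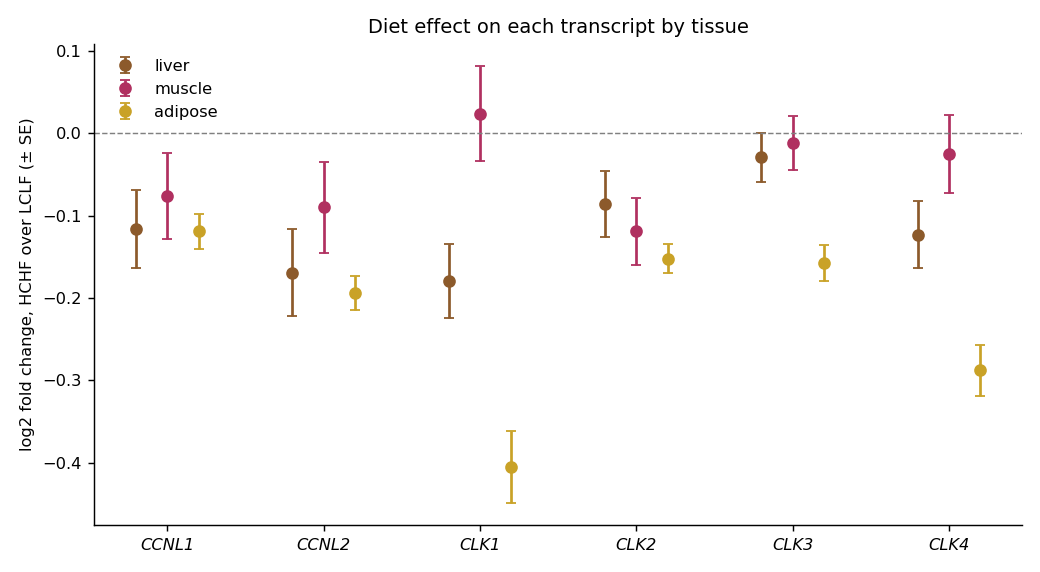
Fitted log2 fold change of each transcript, HCHF over LCLF, with its standard error (edgeR, animal as a block) in liver (84 animals), muscle (95) and adipose tissue (95). CLK1 and CLK4 lie lowest in adipose tissue at -0.40 and -0.29, and CLK1 in muscle is the only value above 0; the adipose values are a description.

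In liver, a tissue that the choice of the set did not use, 4 of the 6 transcripts fell on HCHF: CLK1, CCNL2, CLK4 and CCNL1. By edgeR (quasi-likelihood, blocked on the animal), 27.1% of 14919 genes were called lower and 22.3% higher in liver, and the 4 of 6 is read against the share called lower. The median change of the 6 was -0.12 on the log2 scale, against -0.03 over all genes tested.

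CLK1 ran from 49.0 to 309 CPM with a median of 111 CPM in HCHF livers, and from 67.2 to 216 CPM with a median of 129 CPM in LCLF livers. The groups overlapped over most of their range, and both the lowest and the highest libraries were HCHF. CLK1 fell by 11.7% (log2 change -0.18 ± 0.045, edgeR adjusted p = 0.000538), with 57 of 84 animals lower. CCNL2 had a median of 174 CPM in HCHF livers (110 to 777) and of 198 CPM in LCLF livers (122 to 503), and its change was -0.17 ± 0.053 (edgeR adjusted p = 0.0052, lower in 59 of 84). CLK4 had a median of 38.5 CPM in HCHF livers (20.3 to 84.9) and of 43.6 CPM in LCLF livers (25.2 to 72.3), a change of -0.12 ± 0.041 (edgeR adjusted p = 0.00961, lower in 54 of 84). CCNL1 had a median of 91.4 CPM in HCHF livers (61.9 to 243) and of 99.2 CPM in LCLF livers (60.0 to 189), a change of -0.12 ± 0.047 (edgeR adjusted p = 0.0318, lower in 56 of 84). In these 3 genes too the single highest library was HCHF, above the LCLF range. CLK2 (-0.09 ± 0.040, edgeR adjusted p = 0.0656, lower in 52 of 84) and CLK3 (-0.03 ± 0.030, adjusted p = 0.43, lower in 51 of 84) did not pass.

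The liver calls depended on the pairing and on which animals were included. With no animal block 1 of 6 was called, CLK1 (adjusted p = 0.0465 by edgeR), and with only the 78 animals that have all 6 libraries 2 of 6 were, CLK1 and CCNL2 (edgeR). Within batch 2 (71 animals, limma-voom) the changes of CLK1, CCNL2, CLK4 and CCNL1 were -0.187, -0.181, -0.126 and -0.126, each called. Within batch 1 (13 animals) they were -0.157, -0.134, -0.115 and -0.076, none called. The SE of these changes was 0.043 to 0.054 in batch 2 and 0.104 to 0.129 in batch 1. Without the 5 animals whose liver libraries lie far out on the first axis, CLK2 was called as well, at -0.123 (edgeR adjusted p = 0.00261), and CCNL2 changed by -0.218.

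Other measures also changed in liver. The 13 hepatocyte markers in the table summed to a median of 285000 CPM in HCHF livers (71400 to 398000) and 333000 CPM in LCLF livers (168000 to 436000), and 7 of 13 fell. The 12 macrophage markers summed to a median of 1390 CPM in HCHF livers (695 to 2440) and 1110 CPM in LCLF livers (350 to 1830), and 11 of 12 rose; all 11 T and NK cell markers, all 11 endothelial markers and all 10 fibroblast markers tested rose too. No hepatocyte, macrophage, T and NK cell or endothelial marker had a median of 0 in either diet, and of the fibroblast markers MFAP5 did. Across animals the changes of the 6 transcripts ran against the mean change of the hepatocyte markers, with r between -0.708 (CCNL2) and -0.452 (CLK4). They also ran against the change in total counts, weakly over all animals (r from -0.354 to -0.201) and more closely within batch 2 (r from -0.621 to -0.53), though not within batch 1 (-0.062 to 0.413). The part of cell composition and of depth in the liver falls was not tested, and in a biopsy fewer cells of a type and less RNA per cell cannot be told apart.

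In muscle 1 of the 6 transcripts passed, CLK2, where edgeR called 7.91% of 13621 genes lower and 6.7% higher. CLK2 ran from 16.0 to 92.8 CPM with a median of 30.7 CPM in HCHF muscles, and from 17.4 to 114 CPM with a median of 31.8 CPM in LCLF muscles. The groups overlapped over nearly the whole range. CLK2 fell by 7.95% (log2 change -0.12 ± 0.041, edgeR adjusted p = 0.0368), with 59 of 95 animals lower. It was called in 5 of 12 alternative settings, and without the 18 animals with libraries far out on the first axis its change was -0.065 (adjusted p = 0.122, edgeR). CLK1 had a median of 138 CPM in HCHF muscles (64.6 to 492) and of 125 CPM in LCLF muscles (55.8 to 385), a change of 0.02 ± 0.058, and was higher in 52 of 95 animals. CCNL2 had a median of 81.4 CPM in HCHF muscles (48.3 to 428) and of 80.4 CPM in LCLF muscles (46.8 to 472), a change of -0.09 ± 0.055. CCNL1, CLK3 and CLK4 changed by -0.08 ± 0.052, -0.01 ± 0.033 and -0.02 ± 0.047. The adjusted p of these 5 lay between 0.28 and 0.849 (edgeR). The median change of the 6 was -0.05, against 0.001 over all genes tested.

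Cell type markers moved in muscle as well. The 13 myocyte markers summed to a median of 358000 CPM in HCHF muscles (163000 to 555000) and 385000 CPM in LCLF muscles (227000 to 644000), and 6 of 13 fell. The 11 endothelial markers summed to a median of 401 CPM in HCHF muscles (155 to 968) and 443 CPM in LCLF muscles (164 to 1010), and 8 of 11 fell. Of the macrophage markers 6 of 10 tested rose, with a median sum of 33.2 CPM in HCHF muscles (9.07 to 341) and 26.8 CPM in LCLF muscles (9.72 to 92.8), and of the T and NK cell markers 4 of 6 tested rose, with GZMA at a median of 0 on both diets. Across animals the changes of the 6 transcripts had r between -0.327 (CCNL2) and -0.086 (CLK3) with the mean change of the myocyte markers. By permutation test CCNL2, CCNL1, CLK4 and CLK1 passed (adjusted p of 0.00324, 0.00738, 0.0285 and 0.0375). CLK2 (r = -0.182, adjusted p = 0.105) and CLK3 (adjusted p = 0.427) did not. With the change in total counts r lay between -0.242 and -0.157 over all animals. Within batch 2 it lay between -0.517 and -0.282, and within batch 1 between 0.061 and 0.344. The part of cell composition and of depth in the muscle values was not tested.

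The diet effect on CLK1 differed between liver and muscle. In the 80 animals with both tissues at both times CLK1 changed by -0.185 in liver and by 0.02 in muscle, and liver minus muscle was -0.205 ± 0.069 (limma on within-animal differences, adjusted p = 0.0157). This was the 1 of 6 that passed, where 33.1% of 12553 genes did. Within batch 2 the difference was -0.181 (adjusted p = 0.0766, limma) and within batch 1 -0.329 (adjusted p = 0.23), so it kept its direction and passed in neither batch alone. The differences of the other 5 lay between -0.101 ± 0.064 (CCNL2) and 0.008 ± 0.054 (CLK2). Given with no test, adipose minus muscle was -0.403 ± 0.061 for CLK1 and -0.237 ± 0.052 for CLK4 (91 animals), and adipose minus liver -0.208 ± 0.060 and -0.152 ± 0.053 (82 animals). For CLK3 they were -0.126 ± 0.040 against muscle and -0.133 ± 0.038 against liver. For CCNL1, CCNL2 and CLK2 the differences against adipose tissue lay between -0.081 and 0.015.

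**Figure D3:**
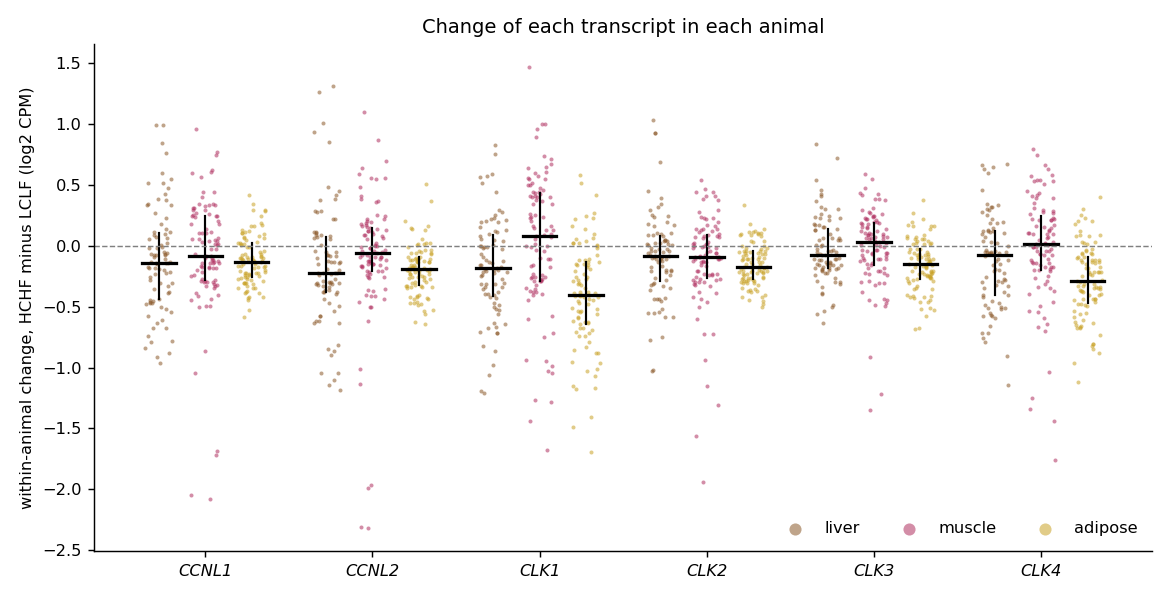
Within-animal change of log2 CPM, HCHF minus LCLF, for each transcript in liver (84 animals), muscle (95) and adipose tissue (95). Points are animals, thick bars medians, thin bars the quartiles and the dashed line no change; in muscle a few animals fall by up to 2.32 (CCNL2), and in adipose tissue CLK1 is spread from -1.69 to 0.58 while CCNL2 stays between -0.64 and 0.51.

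The 6 transcripts moved together from animal to animal in liver and muscle. Over the 15 pairs the correlation of within-animal changes had a median r of 0.703 in liver (0.59 to 0.869, 84 animals) and 0.671 in muscle (0.524 to 0.925, 95 animals). Spearman's rho had a median of 0.63 in liver and 0.387 in muscle. Each of the 30 relations passed a two-sided permutation test with 100000 resamples adjusted over 30, with a largest adjusted p of 4.09e-05 in liver and 0.00313 in muscle over r and rho, and 1e-05 is the smallest p the resamples can give. For scale, pairs of genes taken evenly from those tested had a median r of -0.001 in liver (746 genes) and -0.003 in muscle (682). Of these pairs 95% were under 0.363 in liver and 0.413 in muscle. The genes were not matched to the 6 transcripts on level.

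The highest r was that of the paralogs CLK1 and CLK4 in liver and that of both cyclins in muscle. CCNL1 and CCNL2 had r = 0.837 in liver and 0.925 in muscle (permutation test, adjusted p = 1e-05 each), and CLK1 and CLK4 had r = 0.869 in liver and 0.796 in muscle (adjusted p = 1e-05 each). Without the 2 animals farthest from the median these were 0.801, 0.887, 0.858 and 0.753. CCNL2 and CLK2 were as close, with r = 0.838 in liver and 0.885 in muscle, and CCNL1 and CLK2 had r = 0.845 in muscle. Within batch 2 the median r of the 15 pairs was 0.759 in liver and 0.717 in muscle, and within batch 1 0.52 and 0.338, with the lowest muscle pair at -0.222. In muscle the relation was weaker without the 18 animals far out on the first axis, with a median r of 0.28 (0.122 to 0.716), while in liver without 5 animals it was 0.64 (0.502 to 0.847).

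In adipose tissue, given here with no test, CLK1 and CLK4 moved closely together and the other pairs less so. The median r of the 15 pairs was 0.355, with 0.127 for CCNL1 and CLK3 as the lowest. CLK1 and CLK4 had r = 0.935 (rho 0.916, 95 animals), 0.962 in batch 1 and 0.929 in batch 2, and no other gene with a symbol among 10108 had a change closer to that of CLK1. The next pair was CCNL1 and CLK2 at 0.639. CCNL2, on which the set was chosen, had r = 0.299 with CLK1 and 0.353 with CLK4. Of pairs of genes taken evenly from those tested (842 genes, not matched on level), 95% were under 0.377 in this tissue. That adipose tissue differs from liver and muscle in this was not tested.

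**Figure D4:**
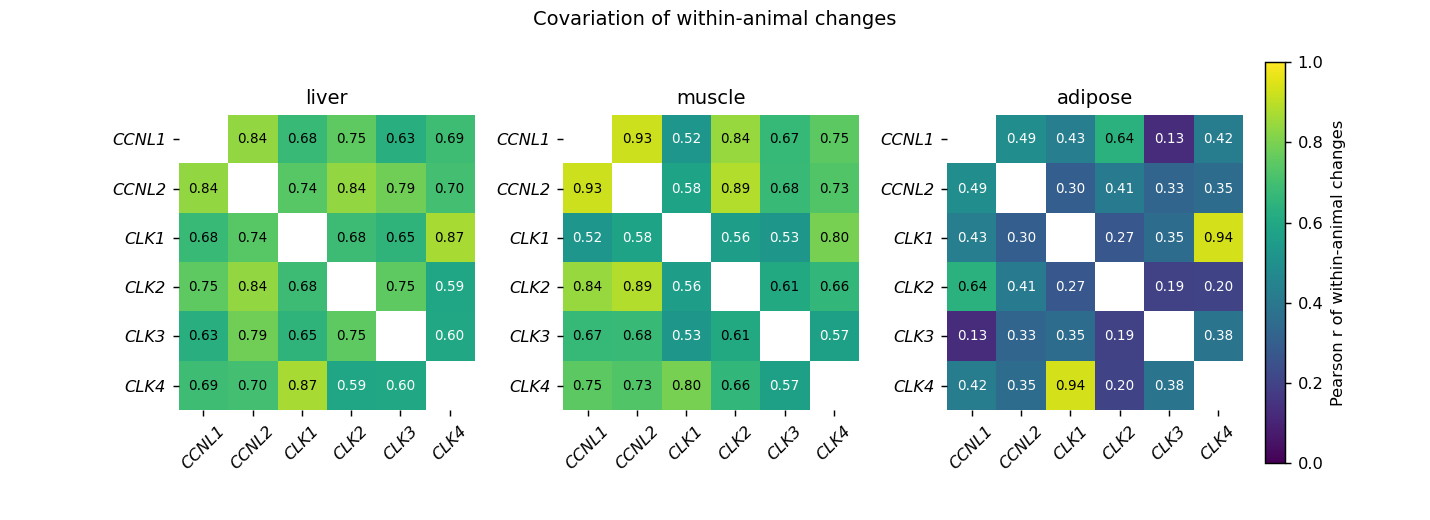
Pearson r between within-animal changes (HCHF minus LCLF, log2 CPM) of each pair of transcripts in liver (84 animals), muscle (95) and adipose tissue (95), on a colour scale from 0 to 1. In liver and muscle each pair is at 0.52 or higher; in adipose tissue CLK1 and CLK4 stand at 0.94 and the other pairs at or under 0.64.

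An animal's level at one time was also set against its level at the other. Centred on the batch means, the HCHF and LCLF levels of an animal correlated in muscle at r from 0.459 (CLK1) to 0.672 (CCNL2), and in liver from 0.292 (CLK2) to 0.447 (CCNL2). Each of these 12 passed the permutation test adjusted over 12, with a largest adjusted p of 0.0072. The share of all genes that would pass was not computed, so a pass is not read as particular to the 6 transcripts. Within batch 2 they lay between 0.305 and 0.683, and within batch 1 between -0.285 and 0.374. The muscle values include animals that lay far out on the first axis at both times, and were not computed without them. In adipose tissue CCNL2, CCNL1, CLK2 and CLK3 had r of 0.534, 0.522, 0.497 and 0.363. CLK1 had r = 0.009 and CLK4 r = 0.1, given with no test.

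Between tissues the changes of an animal correlated weakly. In liver and muscle (80 animals) r lay between 0.172 (CLK4) and 0.386 (CCNL2). By the permutation test on Pearson's r adjusted over 6, 5 of 6 passed, with CCNL2 at an adjusted p of 0.00504. Other genes were not put to this test, so a pass is not read as particular to these 6. By Spearman's rho, which lay between 0.076 and 0.28, 0 of 6 passed after adjustment, with the smallest adjusted p at 0.057 by permutation, and 3 of 6 had an unadjusted p under 0.05. For CCNL2 r was 0.377 within batch 2 and 0.525 within batch 1, and 0.313 without the 2 farthest animals. Of adipose tissue, given with no test, CLK1 had r = 0.399 with muscle (91 animals, rho 0.486) and 0.217 with liver (82 animals), and the other 5 lay between -0.066 and 0.225.

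The first axis of muscle expression was followed closely by the cyclins and CLK2. In each tissue the sign of the axis was set by the level of CCNL2, so the sign of each r is relative to that. The change along it correlated with the change of CCNL2 at r = 0.945, of CLK2 at 0.887 and of CCNL1 at 0.874 (95 animals). For CLK4, CLK3 and CLK1 r was 0.712, 0.642 and 0.586. Each of the 6 passed (permutation test, adjusted p = 2.48e-05 each over 72 relations). Other genes were not put to this test, so a pass is not read as particular to the 6. Within batch 2 r lay between 0.606 (CLK1) and 0.967 (CCNL2), and within batch 1 between 0.123 (CLK3) and 0.566 (CCNL2). Without the 18 animals far out on the axis r lay between 0.104 (CLK3) and 0.751 (CCNL2), with CLK1 at 0.221. In liver r lay between 0.538 (CLK4) and 0.732 (CLK2), at 0.614 to 0.772 within batch 2 and -0.001 to 0.272 within batch 1. In adipose tissue CCNL2 had r = 0.009, CLK1 0.074 and CLK2 -0.496. The axis has no label in these data, and its part in the muscle values was not tested.

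**Figure D5:**
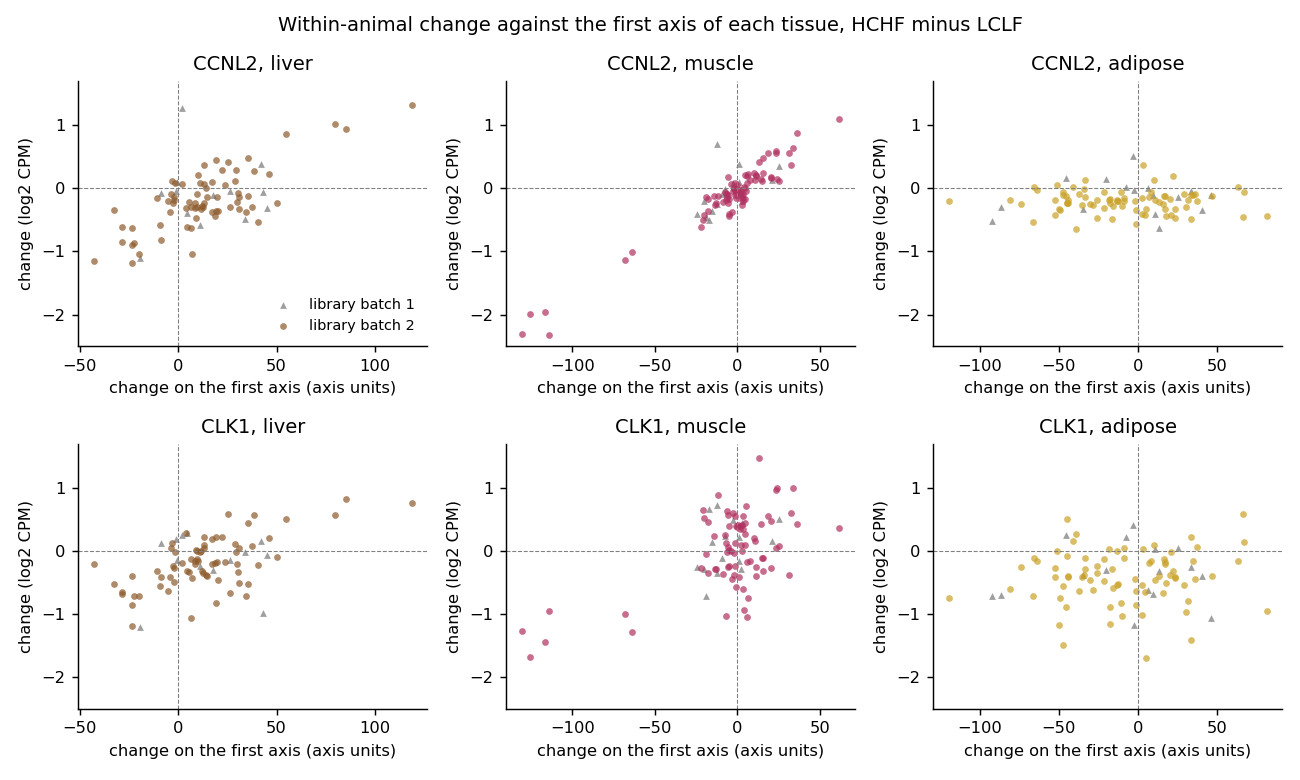
Within-animal change of CCNL2 (top) and CLK1 (bottom) in log2 CPM against the change along the first axis of expression of each tissue (axis units, computed without the 6 transcripts), HCHF minus LCLF, with batch 1 as triangles and batch 2 as circles. CCNL2 follows the axis in muscle (r = 0.945, with a handful of animals far to the lower left) and not in adipose tissue (r = 0.009). The sign of each axis was set by the level of CCNL2.

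The genes whose changes were most like those of the set were named by the highest r over animals. In liver CCNL2 was most like FNBP4, SRSF4, ZKSCAN5, SPPL2B and AP5Z1 (r from 0.866 to 0.872, 84 animals, 9668 genes), CLK1 like CLK4, PRPF39 and TRIM52, and CCNL1 like SRSF11, CCNL2 and PRPF38B. CLK2 was closest to ITFG2, SRSF4 and RBCK1, CLK3 to RBM10, ACIN1 and AP5Z1, and CLK4 to CLK1, POGZ and FNBP4. In muscle CCNL2 was most like CCNL1, PAN2, AMT, CLK2 and FAM193B (r from 0.876 to 0.925, 95 animals, 9176 genes). There CCNL1 was closest to CCNL2, SRSF4 and PAN2, CLK1 to CLK4, SRSF6 and RSRP1, CLK2 to CCNL2, CCNL1 and FAM193B, CLK3 to CCDC84, MRPS9 and MAU2, and CLK4 to SREK1, RBM39 and SRSF6. In adipose tissue CCNL2 was most like FAM156B, SNRNP70, FAM193B, MYO15B and CDAN1 (r from 0.67 to 0.763, 95 animals, 10108 genes). CCNL1 was closest to SFPQ, FOXJ3 and TSPYL2, CLK1 to CLK4, TRA2A and GNRH1, CLK2 to RING1, WRNIP1 and SRRT, CLK3 to LIN37, HOXB4 and MYPOP, and CLK4 to CLK1, RBM5 and GNRH1. These likenesses are descriptions over animals that share their libraries.

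Among other splicing genes, many fell in liver and adipose tissue and few changed in muscle. Of 166 tested genes of 7 lists (SR proteins, SR-related proteins, SR protein kinases and phosphatases, cyclin L partners and transcriptional cyclins, hnRNP proteins, core spliceosome proteins and nonsense-mediated decay factors), 64 fell and 10 rose in liver (38.6% and 6.02%). In adipose tissue 60 of 168 fell and 9 rose (35.7% and 5.36%), and in muscle 8 of 166 fell and 6 rose (4.82% and 3.61%). Over all genes tested 27.1% were called lower in liver, 19.9% in adipose tissue and 7.91% in muscle. The shares called higher were 22.3%, 18.7% and 6.7%. Without the animal block the lists had 38, 33 and 2 genes lower in liver, adipose tissue and muscle. Over all genes that fit (edgeR) called 2236 of 14919 lower in liver, 1826 of 16827 in adipose tissue and 133 of 13621 in muscle.

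The SR proteins, substrates of the CLK kinases, fell in 10 of 12 in liver, 5 of 12 in adipose tissue and 1 of 11 in muscle, and none rose by edgeR. SRSF11 had the largest liver fall, with a mean of 255.8 CPM on HCHF and 288.4 CPM on LCLF (log2 change -0.19 ± 0.050, edgeR adjusted p = 0.00087), and SRSF3 the largest in adipose tissue (-0.17 ± 0.036, adjusted p = 0.000101). Of 29 SR-related and Tra2 proteins 15 fell in liver, 15 fell and 1 rose (RSRC1, 0.12) in adipose tissue, and 3 fell in muscle. SRRM2, a large scaffold of nuclear speckles, had the largest fall of that list in each tissue, at -0.21 ± 0.050 in adipose tissue, -0.32 ± 0.057 in liver and -0.25 ± 0.045 in muscle. The mean change of that list went with each of the 6 transcripts in liver, at r from 0.633 (CLK3) to 0.806 (CCNL2). In muscle r ran from 0.506 (CLK3) to 0.778 (CLK4), with CCNL2 at 0.684. Each of the 6 passed in both tissues (permutation test, adjusted p = 2.48e-05). Within batch 1 of muscle r ran from -0.26 (CLK3) to 0.808 (CLK4). In adipose tissue, with no test, it ran from -0.073 (CLK3) to 0.571 (CCNL1), with CCNL2 at 0.473.

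Of the kinases and phosphatases that act on SR proteins 5 of 17 were higher and 5 lower in liver. In muscle 2 of 18 were higher and 1 lower, and in adipose tissue 4 of 19 were higher and 3 lower. These counts are not far from the shares over all genes. Those were 22.3% higher and 27.1% lower in liver, 6.7% and 7.91% in muscle, and 18.7% and 19.9% in adipose tissue. DYRK2 rose in liver by 0.32 ± 0.049 (edgeR adjusted p = 4.09e-08), with a mean of 9.029 CPM on HCHF and 7.365 CPM on LCLF, and PPP1R10, a targeting subunit of protein phosphatase 1, fell by 0.28 on the log2 scale. DYRK1B fell in muscle (-0.19 ± 0.053) and adipose tissue (-0.22 ± 0.032), where HIPK2 rose (0.31 ± 0.084). Of the cyclin L partners and transcriptional cyclins 7 of 16 fell in liver, CCNT2 most (-0.22 ± 0.041), and 7 of 16 in adipose tissue, CDK9 most (-0.20 ± 0.027). CDK7 rose in muscle (0.13 ± 0.034). None of the 16 rose in liver or adipose tissue by edgeR.

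Core spliceosome genes fell in 14 of 49 in liver, where 27.1% of all genes did, and in 17 of 49 in adipose tissue, where 19.9% did. SNRNP70, a protein of the U1 part of the spliceosome, was the largest fall in all 3 tissues (-0.21 ± 0.053 in liver, -0.14 ± 0.045 in muscle, -0.18 ± 0.027 in adipose tissue). Of 28 hnRNP genes 8 fell and 3 rose in liver and 5 fell and 4 rose in adipose tissue, shares called lower that are near those over all genes, with HNRNPH1 the largest fall in each tissue (-0.22 ± 0.029 in liver). Nonsense-mediated decay factors fell in 5 of 15 in liver, UPF1 most (-0.19 ± 0.035), and in 8 of 15 in adipose tissue, UPF3B most (-0.12 ± 0.030). The values in this and the 2 paragraphs before it are edgeR log2 changes, HCHF over LCLF, with an adjusted p of at most 0.03.

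Genes that respond to temperature, to handling or to the hour of sampling were counted beside them, to be read against the shares of all genes called lower and higher (27.1% and 22.3% in liver, 7.91% and 6.7% in muscle, 19.9% and 18.7% in adipose tissue). Of 10 tested cold- and heat-responsive genes 4 fell and 2 rose in liver, 1 fell in muscle, and 1 fell and 1 rose in adipose tissue. The change of HSPA8, the constitutive heat shock cognate chaperone, ran against that of CCNL2 at r = -0.833 in muscle and -0.655 in liver, and at -0.254 in adipose tissue. It was singled out after its values were seen, as the most negative of the 10 in liver and muscle, and carries no test. The list joins cold- and heat-responsive genes, and its members went both ways with CCNL2. In muscle 5 of 10 had a negative r and 5 a positive one, up to 0.513 for the cold-induced RBM3. In liver RBM3 (0.503), HSPB1 (0.101) and DNAJB1 (0.023) were positive and the others lay between -0.655 and -0.05. In adipose tissue RBM3 (0.122) and HSPB1 (0.005) were positive and the others lay between -0.262 and -0.144. Of the immediate early genes 4 of 24 rose and 1 fell in liver, 1 of 25 rose and 2 fell in muscle, and 5 of 26 rose and 2 fell in adipose tissue. Their mean change had r = 0.465 with CCNL1 in liver (permutation test, adjusted p = 4.8e-05), and the others lay between 0.018 (CLK1) and 0.216 (CCNL2). In adipose tissue, with no test, r was 0.486 for CCNL1 and 0.436 for CLK2. The others there lay between -0.133 (CLK3) and 0.059 (CLK1). For CLK1 and CLK4 in adipose tissue r was 0.55 and 0.576 within batch 1, and -0.037 and -0.073 within batch 2. Of 18 circadian clock genes 7 fell and 1 rose in liver, 1 fell and 2 rose in muscle, and 8 fell and 4 rose in adipose tissue. The part of temperature, handling or hour in the changes of the set was not tested.

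In adipose tissue the cell type markers also moved. Of the 12 macrophage markers 11 rose, and the sum had a median of 678 CPM in HCHF samples (169 to 1810) and 488 CPM in LCLF samples (58.4 to 1870). Of 11 fibroblast markers 10 rose, of 8 mesothelium markers 6 rose, and of 11 endothelial markers 6 fell. The 10 adipocyte markers summed to a median of 9460 CPM in HCHF samples (631 to 18200) and 9390 CPM in LCLF samples (1920 to 22400). None of these markers had a median of 0 in adipose tissue. The mean change of the adipocyte markers had r = -0.096 with CLK1 and -0.046 with CLK4, and -0.494 with CLK2 and -0.371 with CCNL1. Leaving out the 3 animals whose adipose libraries stood apart by markers gave -0.408 for CLK1 and -0.201 for CCNL2. The part of cell composition in the adipose values was not tested.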

How the data were processed

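Per the labels' protocols, libraries were made in 2 batches (16 animals with an unstranded kit, 83 with a stranded kit; reads of 50 bases), and each animal's libraries shared a batch. The labels do not list the batches. The leading axis of mean expression per animal (23.3% of the variance) separated 16 from 83 animals with a gap of 52.5, next 3.89, and was used. Per the submitters' processing notes FastQC, STAR 2.7.7a and featureCounts were used; the sources used here give no build. The authors deposited raw whole-number counts per gene, for 588 libraries and for the 570 that passed their quality control.

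From these, edgeR 4.0.16 (R 4.3.3, Python 3.11.15 for figures) fitted each tissue over animals with both times: TMM, filterByExpr (minimum count 10), 1 common dispersion from 1000 genes, the animal as a block, quasi-likelihood test, Benjamini-Hochberg at 0.05. All 6 transcripts passed the filter in each tissue. CPM is scaled by TMM over all libraries. Tissue levels and the liver minus muscle difference used limma 3.58.1 with a trend on log2 CPM (prior count 2). DESeq2 1.42.0 was an alternative. Simulated counts were used to test the edgeR step. The labels name the animal, which sets the pairing. Deviations of an animal's libraries had a median correlation of 0.494 (adipose), 0.471 (liver) and 0.425 (muscle). Libraries of different animals had -0.00901, -0.0141 and 0.00473. An animal's own correlation was over 0.1 in 91 of 95 animals (adipose), 84 of 84 (liver) and 89 of 95 (muscle), and the rest were kept.

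The transcripts, the lists and the rule for named genes were chosen with earlier results of these data known. The rule takes the 6 transcripts, the called gene with the largest rise and fall of each splicing list at 5 CPM or more, and the genes whose changes have the highest r with each transcript (5 for CCNL2, 3 for the others). Depth counts cover counting error only.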

Additional observations from a re-analysis of the deposited data

Results flagged for a closer look

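The diet effect on CLK1 differed between tissues by a test of the difference itself: liver minus muscle was -0.205 ± 0.069 on the log2 scale (limma, adjusted p = 0.0157, 80 animals), with a mean change of -0.185 in liver and 0.02 in muscle. It passed in neither library batch alone. No other of the 6 transcripts passed this test, which 33.1% of 12553 genes passed.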

How the results depend on the processing

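Each of 12 alternatives was run on the diet effect of each tissue, 10 of them chosen at the outset and 2 after seeing the data (without animals whose libraries stand apart by markers, and without those far out on the first axis). In adipose tissue all 72 values of the 6 transcripts kept their sign. In liver 56 of 72 kept their side of the threshold, 13 lost it, 2 gained it and CLK3 in batch 1 alone turned to 0.086. In muscle 59 of 72 kept it and 7 lost it, all 7 of them CLK2; CLK1 turned to -0.010 (DESeq2) and -0.014 (edgeR) with no animal block, CCNL1 and CLK4 to 0.039 and 0.089 in batch 1 alone, and CLK3 and CLK4 to 0.027 and 0.070 without the animals far out on the first axis.

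The 4 transcripts lower in liver became 1 with no animal block by edgeR or DESeq2, 0 in batch 1 alone and 2 with the animals that have all 6 libraries. The 1 lower in muscle became 0 with no block by edgeR or DESeq2, without a filter on low counts, in batch 1 alone, in batch 2 alone, with all 6 libraries and without the animals far out on the first axis. Genes called in liver numbered 13847 without a filter and 934 in batch 1. In muscle they numbered 543 (DESeq2) and 575 (edgeR) with no block and 16 in batch 1. In adipose tissue they numbered 3852 and 3698 with no block, 10928 without a filter and 1 in batch 1. Genes of the splicing lists called lower with no block were 38 in liver, 33 in adipose tissue and 2 in muscle by edgeR and by DESeq2. Of all genes, edgeR with no block called 2236 lower in liver, 1826 in adipose tissue and 133 in muscle. In batch 1 the lists had 0 lower in each tissue. In muscle they had 5 once libraries that the authors had left out were added back. They also had 5 there without the animals far out on the first axis. Fewer animals enter batch 1 (13 or 16), and the other causes were not tested.

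The liver minus muscle difference of CLK1 was -0.329 in batch 1 and -0.181 in batch 2, neither called. That of CLK3 turned to 0.103 in batch 1 and that of CLK2 to -0.002 in batch 2, none of them called in any setting. Of the tissue levels, liver minus adipose kept 5 of 6 calls in each of 4 alternatives, liver minus muscle went to 5 in 3 of 4 and muscle minus adipose to 5 in 4 of 4. The liver minus adipose level of CLK2 turned to -0.02 in LCLF libraries alone and the muscle minus adipose level of CLK1 to 0.10 in HCHF libraries alone. The median r of the 15 pairs in batch 1 alone was 0.520 in liver and 0.338 in muscle, and 0.280 in muscle without the animals far out on the first axis. The median r of the 6 transcripts between both times in batch 1 was 0.081 in adipose tissue, 0.115 in liver and 0.321 in muscle, and that between liver and muscle 0.403. Counting error was not separated from the spread between animals.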
